A study of Mus musculus with 6 samples.

Results

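The nucleobindins (Nucb1 and Nucb2) and the CREC proteins (Calu, Rcn1, Rcn2, Rcn3 and Sdf4) were followed in the ear skin of mice lacking Ufl1 in keratin 14 lineage cells. The 7 genes were taken by symbol from a table of 54532 genes, each symbol matched 1 row, and all 7 passed the filter on low counts. The list follows the protein family, and Nucb2 was put on it for its higher level in the knockout. Its values in that contrast are therefore given as a description, with no test.

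Total RNA of ear skin from 3-month-old mice was sequenced in 6 libraries. The control group held 3 libraries with the genotype Ufl1f/+ or Ufl1f/f, which library had which is not given, and no Cre is named for them. The Ufl1 cKO group held 3 libraries with the genotype Ufl1f/f KRT14Cre/+, in which Cre is driven by the keratin 14 promoter of basal keratinocytes. Ufl1 encodes the ligase for UFM1, a small modifier joined to proteins, many of them at the endoplasmic reticulum (ER). Cre is named for only 1 group, so effects of Cre and of the loss of Ufl1 cannot be told apart. Whether libraries of a group are from different animals is not stated, so a p-value here reflects only how far these libraries spread, and part of that spread may be technical.

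Proteins of both families bind calcium through EF-hands, short helix-loop-helix motifs, and work mainly inside the secretory pathway. CREC proteins stay in the ER or Golgi lumen or are secreted, and they assist protein folding, calcium handling and cargo sorting. Nucleobindins sit mainly in the Golgi, and cleavage of the NUCB2 protein yields nesfatin-1, a secreted peptide first studied in appetite control. In skin, keratinocytes depend on ER and Golgi calcium stores for adhesion and differentiation, and fibroblasts pass large amounts of collagen through the ER.

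The total count per library was 17256339 to 20776539. The labelled tissue was checked on 8 keratinocyte markers, all detected, with Krt14 at 1159 to 4560.2 CPM (counts scaled to library size). The libraries also held cartilage transcripts, with 6 markers summing to 898 to 1514 CPM in controls and 939.5 to 1440.5 CPM in the cKO. Ufl1 itself had 57.9, 47.0 and 46.1 CPM in controls 1 to 3 against 34.9, 35.6 and 38.8 CPM in cKO 1 to 3, with a log2 fold change of -0.47 (SE 0.14; edgeR adjusted p = 0.778). Whole ear skin holds many cells without Cre, and in such bulk samples fewer cells of a type and less RNA per cell cannot be told apart. Controls 1 and 2 lay at opposite ends in fibroblast and keratinocyte markers. Control 1 had the highest fibroblast and the lowest keratinocyte sum of the 6 libraries. Its skeletal muscle markers were also the highest (5578 CPM, against 1677 to 4593 CPM in the others). Control 2 had the lowest fibroblast and the highest keratinocyte sum. Its 8 fibroblast markers summed to 9841 CPM, against 25976 and 15949.9 CPM in controls 1 and 3 and 20758 to 22071 CPM in the cKO. Its 8 keratinocyte markers summed to 17638 CPM, against 8291 and 10426 CPM in the other controls and 11373 to 15265 CPM in the cKO.

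The sequences before the start sites of the 2 nucleobindin genes are shown because Nucb2 followed Hspa5, a gene of the ER stress response, across the libraries. Nucb2 was picked for its higher level in the knockout, and any gene that shares a group difference follows it in this way. Shared control of Nucb2 and Hspa5 was not tested. ATF6 and XBP1, transcription factors of that response, bind the ER stress response elements ERSE (CCAAT, 9 free bases, then CCACG) and ERSE-II (ATTGG, 1 free base, then CCACG). The 250 bases before each start are given 5′ to 3′ on the strand of the gene, from RefSeq on GRCm38.p6. Nucb2 lies on the plus strand (chr7:116504119-116504368) and Nucb1 on the minus strand (chr7:45510409-45510658). Capitals mark letters that match an element on either strand.
Nucb2: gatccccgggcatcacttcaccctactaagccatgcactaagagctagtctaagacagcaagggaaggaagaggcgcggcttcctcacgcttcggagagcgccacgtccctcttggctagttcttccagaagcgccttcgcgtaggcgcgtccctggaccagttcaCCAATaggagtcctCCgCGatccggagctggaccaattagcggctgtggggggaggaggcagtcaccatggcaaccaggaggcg
Nucb1: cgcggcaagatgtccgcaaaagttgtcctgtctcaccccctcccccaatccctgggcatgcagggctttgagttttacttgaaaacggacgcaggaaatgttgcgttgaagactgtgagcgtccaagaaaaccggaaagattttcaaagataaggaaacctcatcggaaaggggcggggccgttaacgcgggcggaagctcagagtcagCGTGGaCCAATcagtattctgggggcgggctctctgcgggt

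Nucb2 held a near match to ERSE at bases -84 to -66, where -1 is the base before the start. It is set below against the exact ERSE of Hspa5, the gene of the ER chaperone BiP, at bases -65 to -47. Capitals are letters shared with the element.
Hspa5: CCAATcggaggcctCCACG
Nucb2: CCAATaggagtcctCCgCG
The Nucb2 site differs from the element by A17G, counted from 1 at the first C of CCAAT. Nucb1 held an exact ERSE-II at bases -41 to -31, on the strand opposite to the gene.

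Both strands of all windows in the RefSeq table were searched (300 bases, from 250 before to 50 after each start). ERSE was found in 0.119% of 32851 windows and in 0 of the 9 windows of 6 members. Rcn1 had no window in the table. ERSE with any base at position 17 (CCNCG in place of CCACG), a form chosen after the Nucb2 sequence was seen, was in 0.344% of windows and, among members, in Nucb2. ERSE-II was in 0.0365% of windows and, among members, in Nucb1. The 5-base part CCACG, which both elements contain and which these counts therefore share, was in 32.8% of all windows and in 6 of the members' 9, which are 1 window each of Calu, Nucb1, Nucb2, Rcn2, Rcn3 and Sdf4. The 8-base UPR element TGACGTGG was in 0.676% of windows and in 0 of the members' 9. A match describes the letters of a window and is not a measured binding site.

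Nucb2 (ENSMUSG00000030659, chromosome 7, 116504369 to 116540584, mm10, plus strand) had levels of 44.6, 36.1 and 39.0 CPM in controls 1 to 3. In cKO 1 to 3 the levels were 74.5, 69.8 and 79.1 CPM. The lowest cKO library was 1.57 times the highest control, so the groups did not overlap. The means were 39.9 ± 4.28 and 74.5 ± 4.63 CPM (SD, n = 3 each). On the log2 scale the fold change was 0.90 (SE 0.13), or 1.87-fold. The difference stayed between 0.83 and 0.98 on the log2 scale when each library was left out in turn, and control 2, left out, gave the lower end. Melanocyte pigment markers moved in the same libraries, with 6 of 6 higher in every cKO library than in every control (5.73% of the 17318 genes tested were) and sums of 41.8 to 59.4 CPM in controls and 164 to 250.2 CPM in the cKO. Schwann cell markers lay the other way, with 6 of 6 negative log2 fold changes (median -0.52), sums of 701 to 1158 CPM in controls and 485 to 700.0 CPM in the cKO, and 4 of 6 at an unadjusted edgeR p under 0.05, as were 1.95% of genes in the lower direction. The 5 tested neutrophil markers were all positive (median 2.31), with sums of 6.55 to 79.0 CPM in controls and 43.8 to 417 CPM in the cKO, so the groups overlapped, and cKO 1 was the highest. The secretory cell transcription factor Bhlha15 was at 0.0596 to 0.103 CPM in controls and 2.12 to 3.33 CPM in the cKO. Both Bhlha15 and the pigment marker Tyrp1 were called higher by edgeR (adjusted p = 0.0295 each), as were 0.0115% of genes tested, and limma-voom called neither. Of the other 5 acinar gland markers Aqp5, a water channel, was at 3.58 to 6.19 CPM in controls and 6.97 to 13.0 CPM in the cKO (log2 fold change 1.0, SE 0.31; edgeR adjusted p = 0.811). Amy1, an amylase, was at 12.3 to 28.5 CPM in controls and 13.5 to 17.8 CPM in the cKO, Lpo stayed at or below 0.682 CPM, and Pip and Smr3a were at 0 in every library. Summed plasma cell markers lay at 1.96 to 4.29 CPM in controls and 1.95 to 5.55 CPM in the cKO. The part of these cells in the Nucb2 difference was not tested.

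Nucb1 (ENSMUSG00000030824, chromosome 7, 45490458 to 45510406, minus strand), a calcium-binding protein of the Golgi that also binds G protein alpha subunits, had levels of 219, 195 and 269.6 CPM in controls 1 to 3. Its levels in cKO 1 to 3 were 277, 293 and 255 CPM. Control 3 lay above cKO 3, so the groups overlapped. The log2 fold change of 0.27 (SE 0.16) did not pass edgeR over all genes tested (adjusted p = 0.981). It was 0.17 without control 2 and 0.41 without control 3. Read per length, in FPKM, the ratio of Nucb2 to Nucb1 was 0.717, 0.652 and 0.51 for controls 1 to 3, against 0.948, 0.839 and 1.09 for cKO 1 to 3. Read this way, Nucb1 was the more abundant nucleobindin in every control. Nucb2 stayed below it in cKO 1 and 2 and was above it in cKO 3. The ratio rests on the deposited gene lengths, 8212 bases for Nucb1, equal to all its annotated exon bases, and 2331 for Nucb2. In CPM, not divided by length, Nucb1 was above Nucb2 in every library (means 228 against 39.9 in controls, 275 against 74.5 in the cKO).

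**Figure D1:**
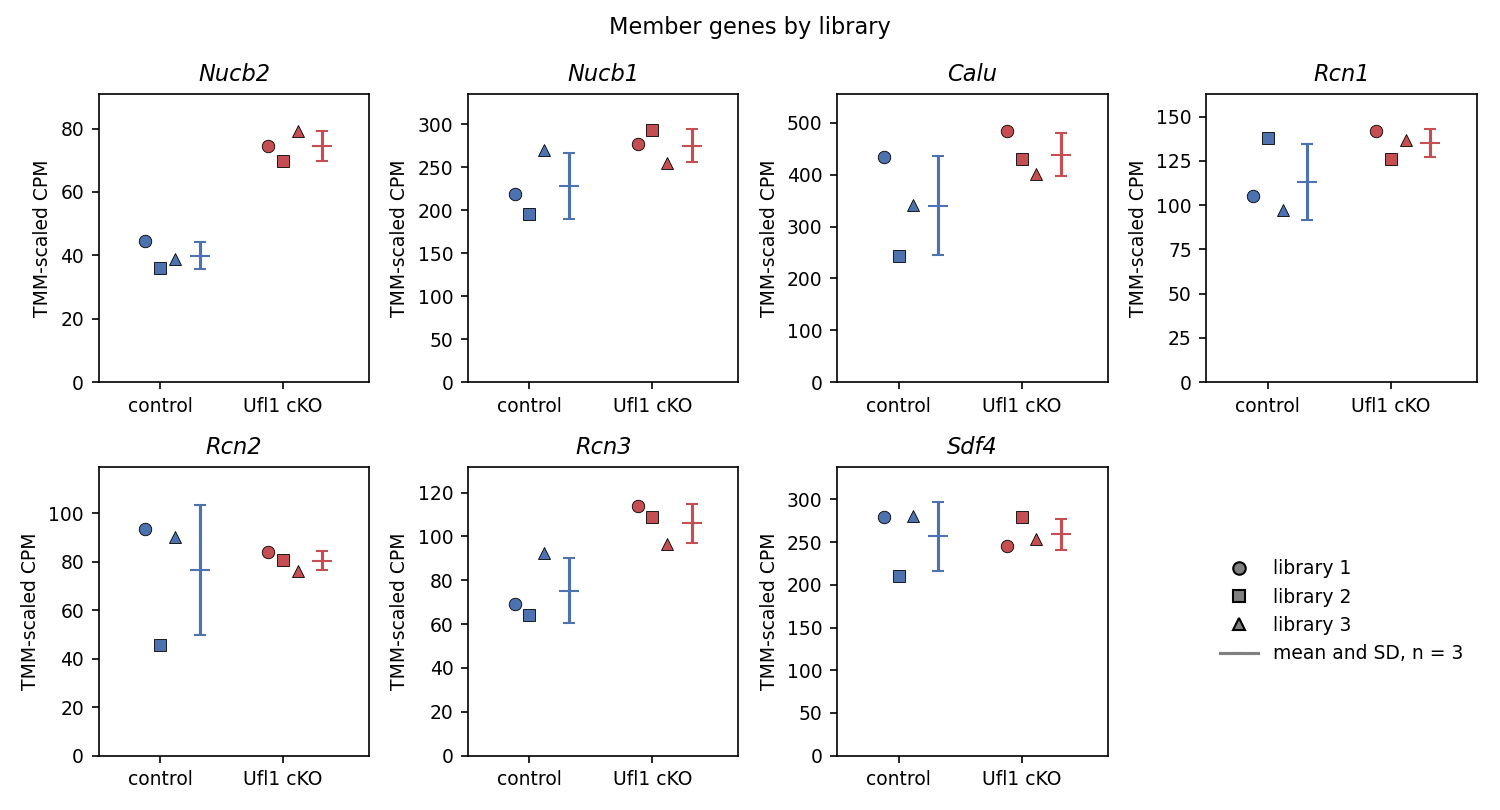
Level of each of the 7 genes in TMM-scaled CPM (y axes, each from 0) in control and Ufl1 cKO libraries; symbols give the library number and the bars to the right the mean and SD (n = 3). Nucb2 and Rcn3 have all cKO libraries above all controls, Nucb2 by a wide gap (69.8 against 44.6 CPM) and Rcn3 by a narrow one (96.6 against 92.3 CPM).

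Among the reticulocalbins, which are lumenal proteins of the ER, Rcn3 differed by the most. Rcn3 (ENSMUSG00000019539, chromosome 7, 45082913 to 45092221) binds the convertase PACE4 and takes part in collagen production. Controls 1 to 3 gave 69.4, 64.2 and 92.3 CPM, and cKO 1 to 3 gave 114, 109 and 96.6 CPM. The groups did not overlap, but cKO 3 exceeded control 3 by a factor of only 1.05. The means were 75.3 ± 14.9 and 106 ± 8.84 CPM (SD, n = 3 each), and the log2 fold change 0.50 (SE 0.16). In the edgeR test p was 0.0162 before and 0.831 after adjustment (adjusted p 0.461 to 0.99995 over the alternatives), so the difference did not pass. It ranged from 0.39 without control 2 to 0.67 without control 3. Of 8 fibroblast markers 1, Col1a1, had every cKO library above every control, as had 5.73% of all genes tested, and 0 had the reverse. Their log2 fold changes were positive for 6 and negative for 2, with a median of 0.18. The part of fibroblasts in the Rcn3 values was not tested.

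Rcn1 (ENSMUSG00000005973, chromosome 2, 105386291 to 105399319) showed 105, 138 and 97.1 CPM in controls 1 to 3. The cKO libraries showed 142, 126 and 137 CPM. Control 2 lay within the cKO range and the other controls below it. The log2 fold change was 0.25 (SE 0.16; edgeR adjusted p = 0.981), rising to 0.42 when control 2 was left out (SE 0.12; edgeR adjusted p = 0.540).

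Rcn2 (ENSMUSG00000032320, chromosome 9, 56041845 to 56061882) had the lowest mean per length in both groups. Controls 1 to 3 had 93.6, 45.5 and 90.3 CPM, and the cKO libraries had 84.2, 80.6 and 76.3 CPM. Control 2 lay far below all other libraries, while controls 1 and 3 were above every cKO library. The log2 fold change was 0.071 (SE 0.25; edgeR adjusted p = 0.997) with all libraries and -0.19 (SE 0.12; edgeR adjusted p = 0.768) without control 2, so its direction rested on that library. In control 2 Rcn1 was 4.49 times Rcn2 in FPKM, against 1.6 to 2.66 times in the other libraries.

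Calu (ENSMUSG00000029767, chromosome 6, 29348069 to 29377110) encodes calumenin, which inhibits vitamin K-dependent gamma-carboxylation and binds the ER calcium pump. Its level was 434, 243 and 342 CPM in controls 1 to 3, next to 485, 431 and 402 CPM in the cKO libraries. Control 1 lay inside the cKO range, and control 2 was the lowest of the 6. The log2 fold change was 0.37 (SE 0.22; edgeR adjusted p = 0.981), falling to 0.18 without control 2 and reaching 0.58 without control 1.

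Sdf4 (ENSMUSG00000029076, chromosome 4, 155992872 to 156013610) encodes Cab45, a Golgi protein that gathers secretory cargo where the pump Atp2c1 brings calcium into the lumen. The 3 controls had 279, 210.1 and 281 CPM, and the 3 cKO libraries had 245, 279 and 254 CPM. The groups overlapped throughout. The log2 fold change was 0.014 (SE 0.16; edgeR adjusted p = 0.997). It was -0.11 without control 2, -0.044 without cKO 2 and -0.018 with upper-quartile scaling.

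Nucb2 was chosen on this contrast and is left out of the counts that follow. Of the other 6 members, 6 had a positive log2 fold change, where 47.8% of the 17318 genes tested did, but 5 with upper-quartile scaling, 5 without cKO 2 and 4 without control 2. Their median was 0.26, beside -0.012 over all genes tested. In 1 of the 6, Rcn3, every cKO library was above every control, as in 5.73% of genes tested. None of the 6 passed edgeR at an adjusted p under 0.05 (0.0115% of genes tested were called higher), and 1, Rcn3, had an unadjusted p under 0.05, as did 3.38% of genes in the higher direction. DESeq2, which called 0.387% of genes higher, and limma-voom each called 0 of the 6.

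**Figure D2:**
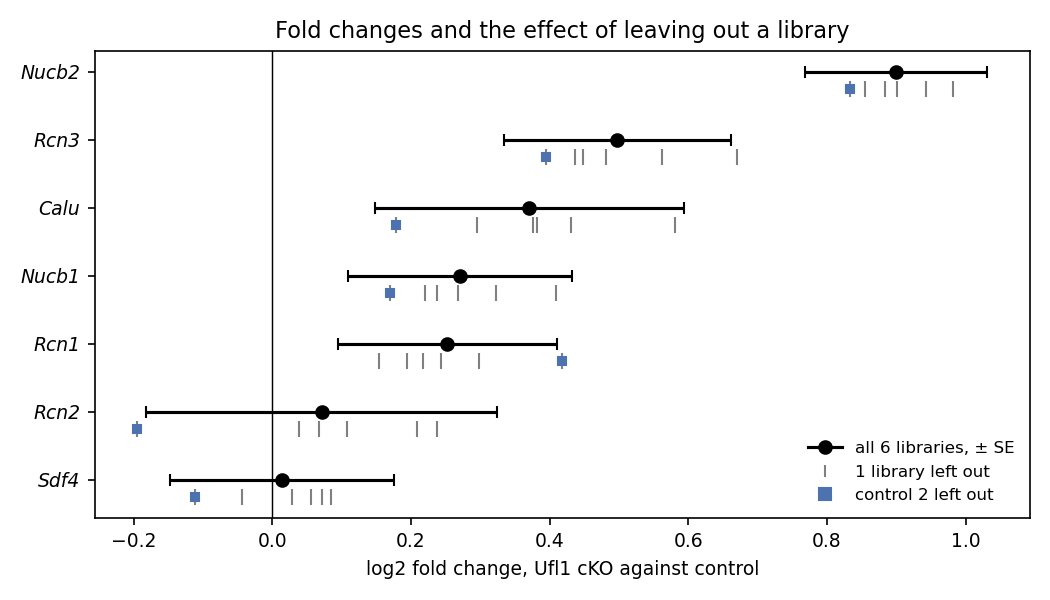
Log2 fold change of each gene, Ufl1 cKO against control (x axis): black points with SE are from all 6 libraries, grey ticks from fits with 1 library left out, and blue squares mark control 2 left out. Nucb2, which was picked for its rise in these same libraries, stays between 0.83 and 0.98. Rcn2 and Sdf4 cross 0 without control 2 (-0.19 and -0.11).

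The controls differed more among themselves than the cKO libraries did. The coefficient of variation of a member's CPM was 10.7% (Nucb2) to 35.1% (Rcn2) in controls and 4.89% (Rcn2) to 9.62% (Calu) in the cKO. Control 2 had the lowest control value in 6 of 7 members and the highest in the remaining one, Rcn1. The same library had the lowest sum of fibroblast markers and the highest sum of keratinocyte markers, given above. The part of cell composition in the member values was not tested.

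**Figure D3:**
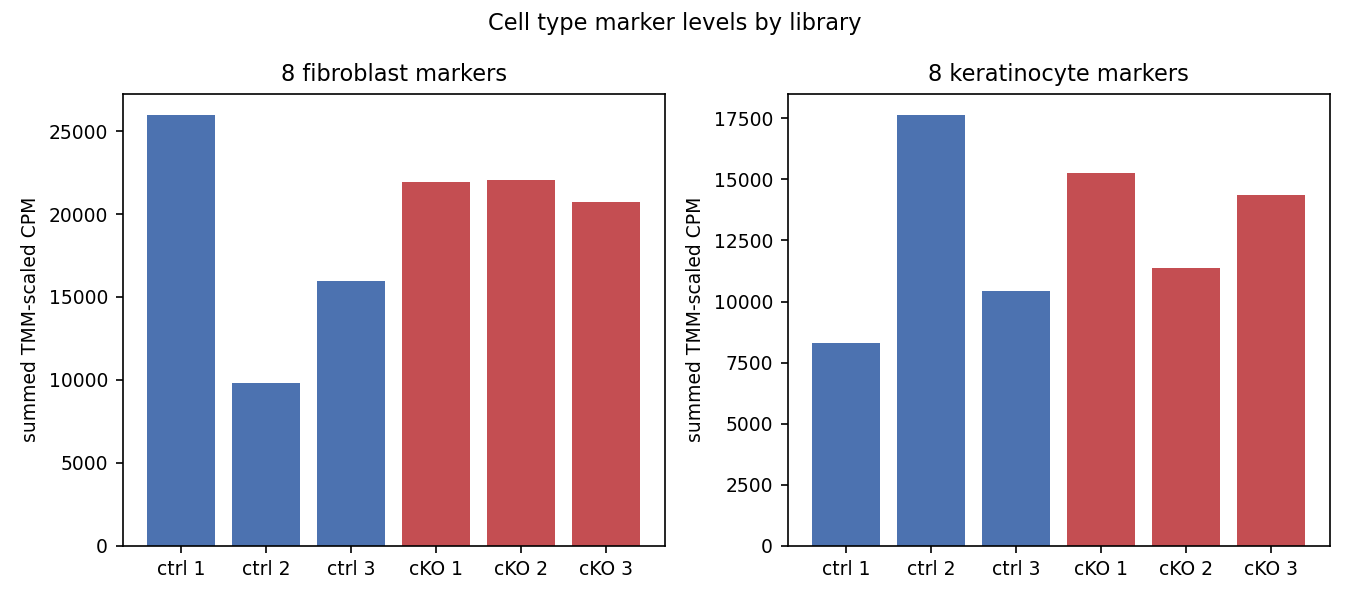
Summed TMM-scaled CPM (y axes) of 8 fibroblast markers (left) and 8 keratinocyte markers (right) in each library, controls in blue and Ufl1 cKO in red. Control 2 has the lowest fibroblast sum (9841 CPM) and the highest keratinocyte sum (17638 CPM). Control 1 has the highest fibroblast sum (25976 CPM) and the lowest keratinocyte sum (8291 CPM).

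Levels were compared between genes per length, in the deposited FPKM. The gene lengths ran from 1717 bases (Rcn3) to 8212 (Nucb1), and the order rests on them. In CPM, not divided by length, the control means were highest for Calu (339.9), Sdf4 (257) and Nucb1 (228). Nucb2 had the lowest CPM mean in both groups (39.9 in controls and 74.5 in the cKO). Calu was the most abundant member, at 72.3 ± 20.7 FPKM in controls and 93.6 ± 8.63 FPKM in the cKO (SD, n = 3 each). In controls Rcn3 (43.5 FPKM), Sdf4 (41.6), Rcn1 (35.1) and Nucb1 (27.5) followed, with library ranges that overlapped from each gene to the next. Nucb2 (17.0 ± 1.91 FPKM) and Rcn2 (16.0 ± 5.70 FPKM) were lowest, with overlapping ranges, and Nucb2 lay below the range of Nucb1. In the cKO the order of means was the same. There Nucb2 (31.7 ± 2.05 FPKM) lay above the range of Rcn2 (16.8 ± 0.754 FPKM) and overlapped that of Nucb1 (33.2 ± 2.27 FPKM).

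The summed FPKM of the 7 genes was 276, 212 and 271 in the 3 controls, and 334, 321 and 307 in the 3 cKO libraries. Of that sum Nucb2 made up 6.15% to 7.18% in controls and 9.26% to 11.0% in the cKO. Sdf4 made up 15.9% to 16.9% in controls and 11.8% to 14.1% in the cKO, while its own FPKM was 41.6 ± 6.80 in controls and 42.1 ± 2.94 in the cKO (SD, n = 3 each). Shares of one sum are not independent of each other, and they rest on the same gene lengths.

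**Figure D4:**
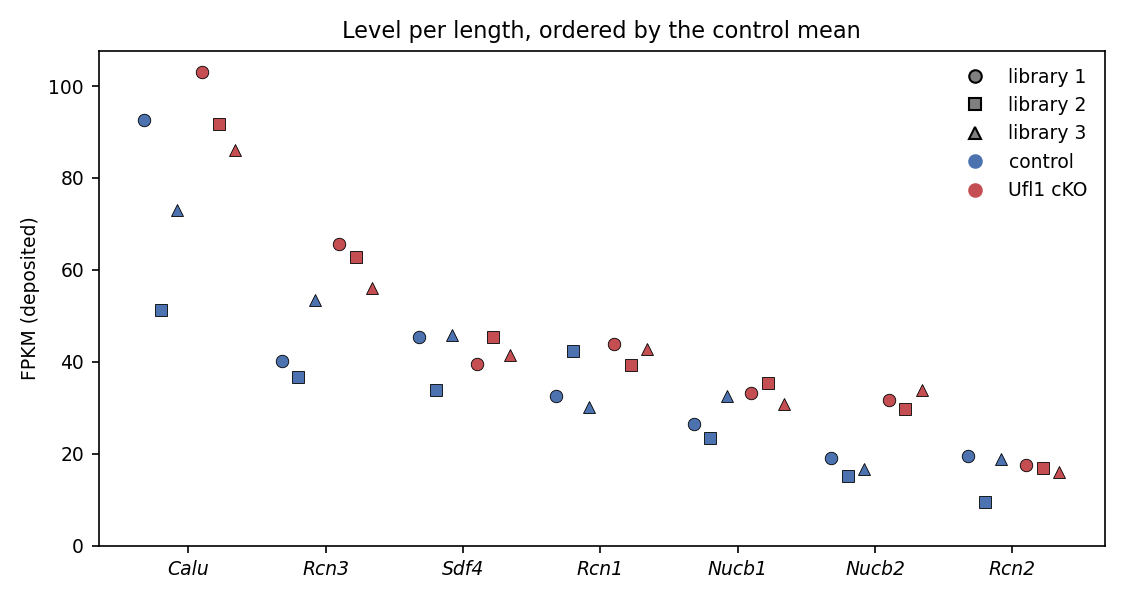
Deposited FPKM (y axis, from 0) of each gene in each library, genes ordered by the control mean; blue is control, red is Ufl1 cKO and symbols give the library number. Calu is highest in both groups. Nucb2 is in the range of Rcn2 in controls (17.0 against 16.0 FPKM on average) and in that of Nucb1 in the cKO (31.7 against 33.2 FPKM). These positions rest on the gene lengths used, and in CPM Nucb2 has the lowest mean in both groups.

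The genes whose CPM followed Nucb2 most closely were sought among 11026 genes with a mean of at least 10 CPM. Likeness was Pearson's r of log2 CPM over the 6 libraries, given as a description, since a difference between the groups raises r for any gene that shares it. The 5 highest were Sec61g, a subunit of the ER translocon (r = 0.995), Lman1, a cargo receptor between ER and Golgi (r = 0.995), P4hb, a protein disulfide isomerase (r = 0.993), Hspa5 (r = 0.992) and Cyb561a3, a lysosomal cytochrome (r = 0.990). In all, 136 genes had r over 0.9. Hspa5 had levels of 343, 310.4 and 318 CPM in controls 1 to 3, against 727, 678 and 748 CPM in the cKO libraries. As for Nucb2, cKO 2 was the lowest and cKO 3 the highest of its group, a shared order that picking genes by r favours. Sec61g was at 51.1 to 56.5 CPM in controls and 78.5 to 86.1 CPM in the cKO. Cyb561a3 kept the same order of libraries over a narrow range, from 12.4 to 12.8 CPM in controls and from 13.9 to 14.7 CPM in the cKO.

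**Figure D5:**
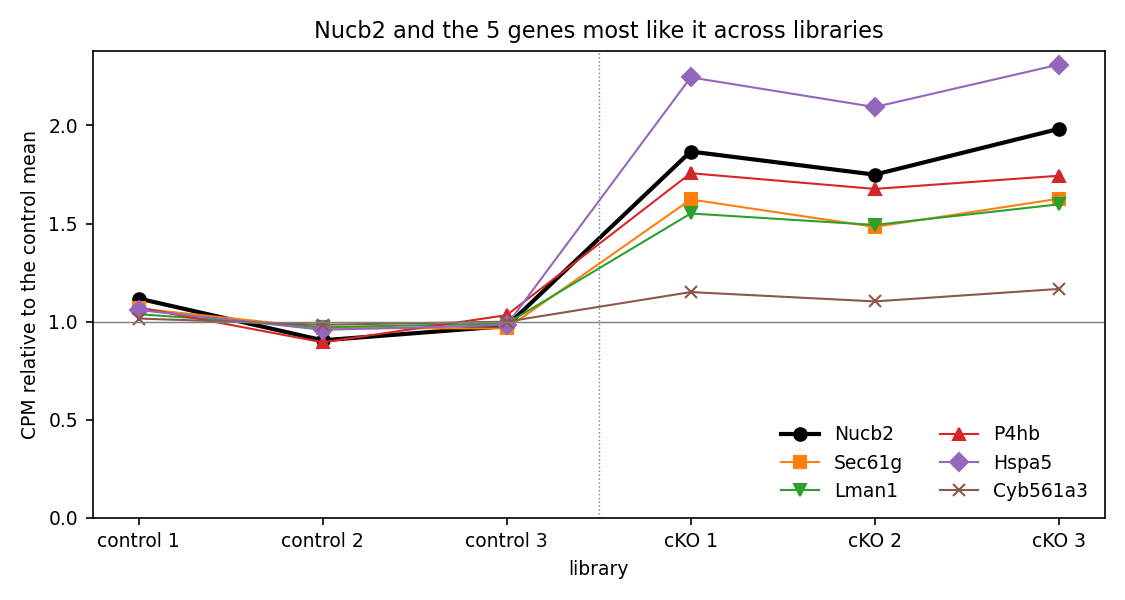
CPM relative to the mean of the 3 controls (y axis, from 0) in each library (x axis) for Nucb2 (thick black line) and the 5 genes most like it; lines join the libraries of a gene only to guide the eye. Each gene has cKO 2 as the lowest cKO library, which picking genes by r favours, and Cyb561a3 spans the smallest range.

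Genes that work beside these proteins were taken from lists. Of 8 calcium-buffering chaperones of the ER lumen, 8 had every cKO library above every control (5.73% of all genes tested), with a median log2 fold change of 0.74, and their summed level was 1959 to 2243 CPM in controls and 3259.6 to 3658 CPM in the cKO. Hspa5 had a log2 fold change of 1.15 (SE 0.15), Pdia6 0.81 (SE 0.13), P4hb 0.79 (SE 0.16) and Hsp90b1 0.77 (SE 0.16). edgeR and limma-voom called 0 of 8 at an adjusted p under 0.05, the unadjusted edgeR p was under 0.05 for 8 of 8 (3.38% of all genes in the higher direction), and DESeq2 called 6 higher (0.387% of all genes). These shares over all genes also serve for the wider list that follows. As the lists were chosen with results of these data known, nothing particular to them is read from the counts. The wider list of 22 ATF6 and XBP1 target genes shares 7 of these 8 chaperones. It had 22 positive log2 fold changes, a median of 0.55 and 16 genes whose groups did not overlap. Over all genes tested 47.8% were positive, a share that also serves for the lists below. edgeR and limma-voom called 0 of 22, the unadjusted edgeR p was under 0.05 for 15, and DESeq2 called 9 higher.

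The pumps and channels that fill and empty the calcium stores differed little. Of 16 such genes, 9 had a positive and 7 a negative log2 fold change, with a median of 0.04, and in none did the groups separate. Atp2c1, the Golgi pump that works with Cab45, was at 69.1 to 78.2 CPM in controls and 75.0 to 80.4 CPM in the cKO, a log2 fold change of 0.08 (SE 0.11). Orai2, a plasma membrane channel that refills the stores, was at 0.32 (SE 0.17; edgeR adjusted p = 0.970). Of the 6 genes of Cab45-dependent sorting, which again include Atp2c1, 4 were positive and 2 negative, with a median of 0.08. Cfl1 (cofilin) was at 0.14 (SE 0.15), Cfl2 at -0.23 (SE 0.27) and the sphingomyelin synthase Sgms1 at 0.09 (SE 0.11).

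Other EF-hand proteins of the early secretory pathway had 7 of 7 positive values and a median of 0.15. Over all genes tested 47.8% were positive. The summed level of the list was 737, 396 and 602 CPM in controls 1 to 3 and 604 to 689 CPM in the cKO. Control 2 thus had the lowest sum and control 1 the highest. Cgref1 had the largest difference of those named, at 0.55 (SE 0.25; edgeR adjusted p = 0.941). Mcfd2, the partner of Lman1, was at 0.16 (SE 0.15), Selenon at 0.20 (SE 0.18) and Fkbp10 at 0.12 (SE 0.20). The 7 tested secreted proteins of the SPARC family had a median of 0.02. Sparc itself had 6023, 2568 and 4240.1 CPM in controls 1 to 3, again lowest in control 2.

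Partners of single members were compared last. Of 10 tested genes of vitamin K-dependent carboxylation, the reaction that calumenin inhibits, 8 were positive, with a median of 0.16. Ggcx, the carboxylase, had 20.6, 20.3 and 18.9 CPM in the 3 controls, next to 30.1, 34.3 and 24.3 CPM in the cKO libraries (log2 fold change 0.57, SE 0.17; edgeR adjusted p = 0.765). Vkorc1, which recycles vitamin K, was at 3.76 to 5.43 CPM in controls and 7.65 to 8.75 CPM in the cKO (0.74, SE 0.23; edgeR adjusted p = 0.811). Neither enzyme's groups overlapped, and 5.73% of all genes tested likewise had every cKO library above every control. Of 15 genes of collagen modification and folding in the ER, where Rcn3 acts, 15 were positive (47.8% of all genes tested were), with a median of 0.18. Their summed level was 1003, 736 and 983 CPM in controls 1 to 3 and 973 to 1198 CPM in the cKO. Control 2 had the lowest sum. Fkbp10 and Fkbp14 are also among the EF-hand proteins above. The collagen chaperone Serpinh1 was at 0.54 (SE 0.17; edgeR adjusted p = 0.811). Among 8 tested proprotein convertases and prohormone-processing genes 4 were positive and 4 negative, with a median of -0.01. Pcsk1 and Pcsk2, convertases associated with prohormone cleavage, did not pass the filter on low counts. In these 7 lists edgeR, DESeq2 and limma-voom each called 0 genes at an adjusted p under 0.05. The unadjusted edgeR p was under 0.05 for 3 genes (Ggcx, Vkorc1 and Serpinh1), all higher in the cKO. Over all genes tested, 3.38% had such a p in the higher and 1.95% in the lower direction. Nothing particular to these lists is read from that count.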

How the data were processed

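The authors deposited 1 table for the series, with whole-number counts per gene and library and FPKM values, per the file headers. It also holds the authors' normalized mean count per group (a signal value), log2 fold changes, and p-values with adjusted p-values, per the file headers; these were not used. The submitters' processing notes list HISAT2, HTSeq and mm10; no strand setting is given in the sources used here, so overlapping genes on opposite strands cannot be told apart. Genotypes were compared on the counts with edgeR 4.0.16 and its quasi-likelihood test (R 4.3.3; filterByExpr, TMM, robust, no covariates), with Benjamini-Hochberg adjustment over 17318 genes at 0.05. The SE of a log2 fold change was derived from this test, as the size of the fold change over the square root of its F statistic. For Nucb2 it is given as a description, and no test is read from it. CPM values are TMM-scaled. Alternatives were RLE and upper-quartile scaling, 2 other filters, DESeq2 1.42.0, limma-voom and limma-trend (limma 3.58.1) on log2(FPKM + 1) and log2(FPKM + 0.1), a replicate block, and leaving out each library. Tests were checked on simulated counts.

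Members and lists were chosen with earlier results of these data known. Named genes are the 7 members, Ufl1, Hspa5, up to 4 genes per list with the smallest p, and the 5 genes most like Nucb2. Bhlha15, Aqp5, Amy1, Lpo, Krt14, Pip, Smr3a, Pcsk1 and Pcsk2 were named beside that rule after their values were seen. On opposite strands, 8.51% of Calu exon bases overlap Opn1sw (67 counts in all, against 43390 for Calu) and 16.9% of Rcn3 exon bases overlap Gm45669 (4 against 10206), in GENCODE vM21.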

Additional observations from a re-analysis of the deposited data

How the results depend on the processing

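Nucb2 was picked for its rise in these same libraries, so its values here are a description. Its log2 fold change was positive in all 15 alternatives (0.83 to 0.98 with a library left out, 0.87 to 0.91 otherwise). Those of Nucb1, Calu, Rcn1 and Rcn3 were also positive in all 15, and none of the 6 other members passed in any alternative. With a library left out Rcn2 lay between -0.19 (control 2) and 0.24 (control 1). Sdf4 turned to -0.018 with upper-quartile scaling, -0.11 without control 2 and -0.044 without cKO 2, with 0.085 as its highest. The cause was not tested. The count of genes called, 3 in edgeR, was 25 with no filter beyond 1 count, 91 in DESeq2, 0 in limma-voom and in both FPKM fits (564, 509 and 506 genes higher and 327, 310 and 307 lower at an unadjusted p under 0.05), and 0 to 4 with a library left out (332 to 927 higher and 170 to 949 lower at an unadjusted p under 0.05). Same-numbered libraries were not shown to be paired: their deviations correlated at 0.216, -0.0431 and -0.038 for numbers 1 to 3. With the replicate number as a block 12 genes were called, among them the 3, and the log2 fold changes of Nucb2 and Rcn3 were 0.90 and 0.51. The Rcn3 difference had an unadjusted p under 0.05 in 14 of 15 alternatives (0.0596 without cKO 1).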
